A study of Mus musculus with 2 samples.

Results

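The urea cycle and amino acid catabolism genes are a set of 10 genes chosen by name: Cps1, Otc, Ass1, Asl, Arg1 and Nags of the cycle, and Gls2, Oat, Sds and Prodh, which release ammonia, ornithine breakdown products or carbon from single amino acids. A probe set, the group of short probes that reads a transcript on an Affymetrix array, was taken where the platform annotation gave it a single gene symbol and that symbol was in the set. This rule found 10 probe sets for 8 of the 10 genes, out of 34945 probe sets with a single symbol for 18193 genes. Gls2 and Sds had no such probe set and are not analysed here.

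The study set Bglu3 congenic mice against C57BL/6 apoE-/- control mice by their liver RNA. Bglu3 names a blood glucose locus on mouse chromosome 1. In a congenic strain a chromosome segment from a donor strain has been bred onto another strain. Mice of both groups were weaned onto chow at an age of 3 weeks, were given a Western diet from an age of 6 weeks for 12 weeks, and carry the label hyperglycemia. Each group is represented by 1 array, made from 8 µg of total RNA. The labels give neither the number of mice behind an array nor their sex, nor whether RNA was pooled, nor the apoE genotype of the congenic mice, nor the donor strain and ends of the segment. The spread between animals cannot be had from single arrays, so no difference below has a test or a replicate check.

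The urea cycle turns toxic ammonia, set free when amino acids are broken down, into urea for excretion, and the complete cycle runs mainly in hepatocytes. Its first steps lie in the mitochondrion, where carbamoyl phosphate is made and joined to ornithine, and its later steps lie in the cytosol, where argininosuccinate is built and split and arginine is cleaved to urea and ornithine. The enzymes of the cycle are concentrated in hepatocytes near the portal vein, whereas ammonia that escapes is captured as glutamine by hepatocytes around the central vein. Expression of these enzymes is known to follow protein intake, glucagon and glucocorticoids.

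All 8 genes were expressed on both arrays at a level that differed by less than 1.5-fold, so that by this size 0 were higher and 0 lower in congenic liver. The same held for all 10 probe sets, against 13.3% past 1.5-fold in either direction among all expressed probe sets with a single symbol. Among all 12613 expressed genes, 7.59% were higher and 5.26% lower by 1.5-fold or more, together 12.9%. For the 6 of the 8 genes with a mean intensity of 1000 or more, the nearer background is the 1389 expressed genes this bright, of which 5.04% differed by 1.5-fold or more in either direction. A gene was called expressed when its brightest probe set reached the 50th percentile of all probe sets on either array. Differences were taken as log2(intensity + 5), congenic minus control, a scale on which the difference of dim genes is understated. The median difference of the 8 genes was -0.08, against 0.04 over all expressed genes, and 3 were positive and 5 negative. They ranged from -0.43 for Prodh to 0.14 for Otc.

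**Figure D1:**
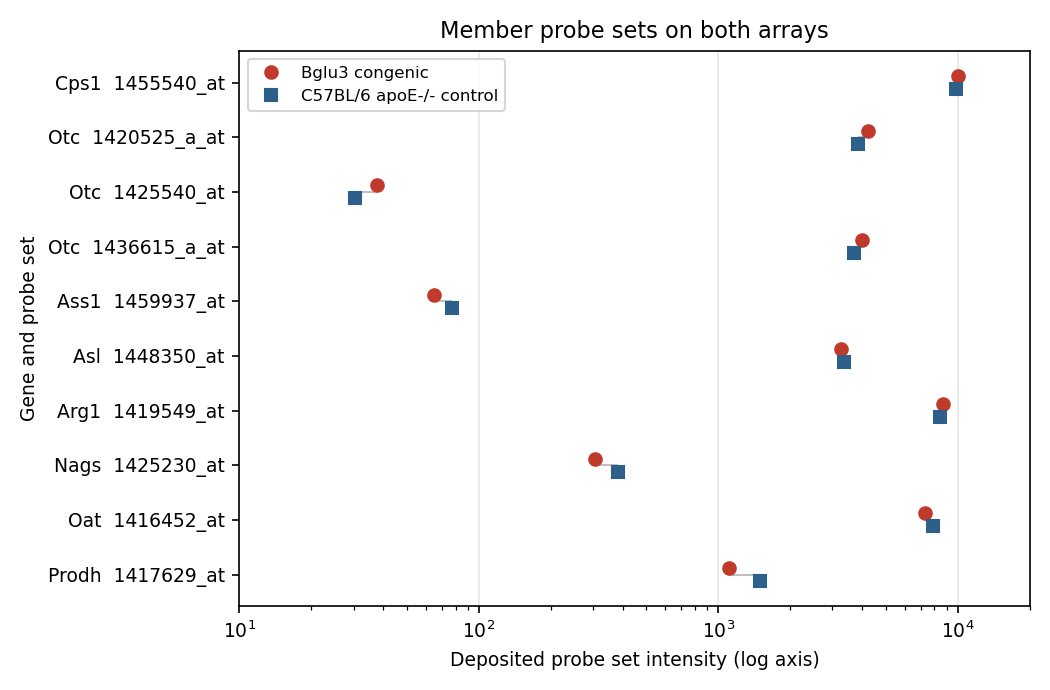
Intensity of each of the 10 probe sets on the Bglu3 congenic array (red circles) and on the C57BL/6 apoE-/- control array (blue squares), with a logarithmic intensity axis and 1 array per group. The symbols of a probe set lie close together in each row, and the widest gap belongs to Prodh, with 1108 in congenic liver and 1493 in control liver.

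The only measure of technical disagreement that these arrays allow is how far expressed probe sets of the same gene differ from each other. The SD of their differences about the gene mean was 0.43 for genes with a mean intensity below 100, 0.29 for genes between 100 and 1000, and 0.22 for genes above 1000. This SD covers no animal and no second hybridisation. By their brightest probe sets, 6 of the 8 genes differed by less than the SD at their own level. The exceptions were Prodh and Nags, both lower in the congenic array. Nags passed its SD of 0.29 by little, at -0.30, and lay within it after median centring, at -0.28.

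Because they are these 2 exceptions, the RefSeq promoter windows of Nags and Prodh are shown, from 250 bases before to 50 after a start site, in assembly GRCm38.p6. The Nags window lies at chr11:102145263-102145562 on the plus strand, and the Prodh window at chr16:18089141-18089440 on the minus strand. Both read 5′ to 3′ along the gene, and capitals mark the motif matches named after them.
Nags: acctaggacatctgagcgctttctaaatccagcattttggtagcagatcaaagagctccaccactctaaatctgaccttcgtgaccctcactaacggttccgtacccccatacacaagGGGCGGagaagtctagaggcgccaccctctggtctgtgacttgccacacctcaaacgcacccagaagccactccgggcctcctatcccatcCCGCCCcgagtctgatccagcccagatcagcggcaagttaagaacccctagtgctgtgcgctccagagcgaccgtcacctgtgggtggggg
Prodh: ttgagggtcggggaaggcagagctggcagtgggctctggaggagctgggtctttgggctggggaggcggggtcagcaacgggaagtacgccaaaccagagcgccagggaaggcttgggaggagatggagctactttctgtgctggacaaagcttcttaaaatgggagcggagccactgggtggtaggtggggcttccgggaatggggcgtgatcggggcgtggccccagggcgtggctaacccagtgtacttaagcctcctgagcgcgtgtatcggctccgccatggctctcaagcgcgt
A search of both strands covered the TATA box TATAAA, the CCAAT box CCAAT, the GC box GGGCGG, the E-box CACGTG, the cAMP response element TGACGTCA, the C/EBP palindrome TTGCGCAA and the HNF4 element CAAAGTCCA. Nags held 2 GC boxes, which begin 132 and 41 bases before its start site, and Prodh held no match to any of these letters. A GC box was present in 35.7% of all 32851 RefSeq promoter windows of this length, a CCAAT box in 37.4%, a TATA box in 13.6%, an E-box in 7.15%, a cAMP response element in 1.79%, an HNF4 element in 0.475% and the C/EBP palindrome in 0.183%. A match is a run of letters and was not measured as a binding site here. Promoter windows were available for 5 of the 10 genes.

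The mitochondrial entry into the cycle was nearly level between the arrays except at its activator. Cps1, which makes carbamoyl phosphate from ammonia and bicarbonate, had an intensity of 10038 in the congenic array, against 9829 in the control array. Its difference was 0.03, and it turned to -0.02 after quantile normalization. Cps1 is the only one of the 8 genes on chromosome 1, the chromosome of the Bglu3 locus, where 16.2% of 736 expressed genes differed by 1.5-fold or more. Whether it lies within the donor segment is not known here.

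Nags makes N-acetylglutamate, the obligate activator of Cps1. It stood at 306 in the congenic array and 379.8 in the control array, a difference of -0.30. A lower difference than this was found in 14.5% of all expressed genes. Nags and Cps1 lay on opposite sides of 0, with Nags further from it, but after quantile normalization both were below 0.

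Otc joins carbamoyl phosphate to ornithine to form citrulline and was read by 3 probe sets. The brightest had 4233 in the congenic array, against 3835 in the control array, a difference of 0.14. The next had 3976 in the congenic array and 3689 in the control array, a difference of 0.11. The dimmest had 37.7 in the congenic array and 30.3 in the control array, a difference of 0.27. All 3 probe sets were higher in the congenic array, and each by less than the SD of probe set disagreement at its level. Otc, encoded on chromosome X, was the only one of the 8 genes with more than 1 probe set.

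The cytosolic steps lay close to 0 where their probe sets were bright. Asl, which splits argininosuccinate into arginine and fumarate, stood at 3249 in the congenic array and 3336 in the control array, a difference of -0.04. Arg1, the liver arginase that releases urea from arginine, stood at 8681 in the congenic array and 8398 in the control array, a difference of 0.05. These are the smallest differences of the 8 genes after that of Cps1.

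Ass1, which condenses citrulline with aspartate and is often described as the rate-limiting step of arginine synthesis, had a single probe set of its own, and it was dim. It read 65.0 in the congenic array and 77.2 in the control array, a difference of -0.23, within the SD of 0.43 for probe sets this dim. A further probe set is annotated to both Gm5424 and Ass1 and so falls outside the rule. It read 2853 in the congenic array and 3244 in the control array, a difference of -0.18. Both probe sets were lower in the congenic array by less than the SD at their level, and the brighter one cannot be assigned to either gene alone.

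Taking the cycle as a list, the 6 genes had a median difference of 0.00 with 3 above and 3 below 0. The 5 genes whose enzymes lie in the mitochondrion (Cps1, Otc, Nags, Oat and Prodh) ranged from -0.43 to 0.14, and the 3 of the cytosol (Ass1, Asl and Arg1) from -0.23 to 0.05. The ranges overlap, and the location of the enzymes did not divide the genes by direction. The probe sets of Cps1, Arg1 and Oat read 7287 or more on both arrays, whose maximum was 14440 in congenic liver and 13395 in control liver, and differences near the top of such a scale can be flattened.

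Both catabolic enzymes with a probe set were below 0, and Prodh was the lowest of the 8 genes. Oat transfers the amino group of ornithine and so links the cycle with proline and glutamate, and it is known as an enzyme of the central vein zone. It stood at 7287 in the congenic array and 7909 in the control array, a difference of -0.12. Prodh, the mitochondrial enzyme that begins the breakdown of proline, stood at 1108 in the congenic array and 1493 in the control array, a difference of -0.43. Its difference was larger in size than that of 77.9% of expressed genes and lower than that of all but 9.26% of them. Prodh remained below 0 under each of 5 other pseudocounts and scalings, between -0.44 and -0.41.

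**Figure D2:**
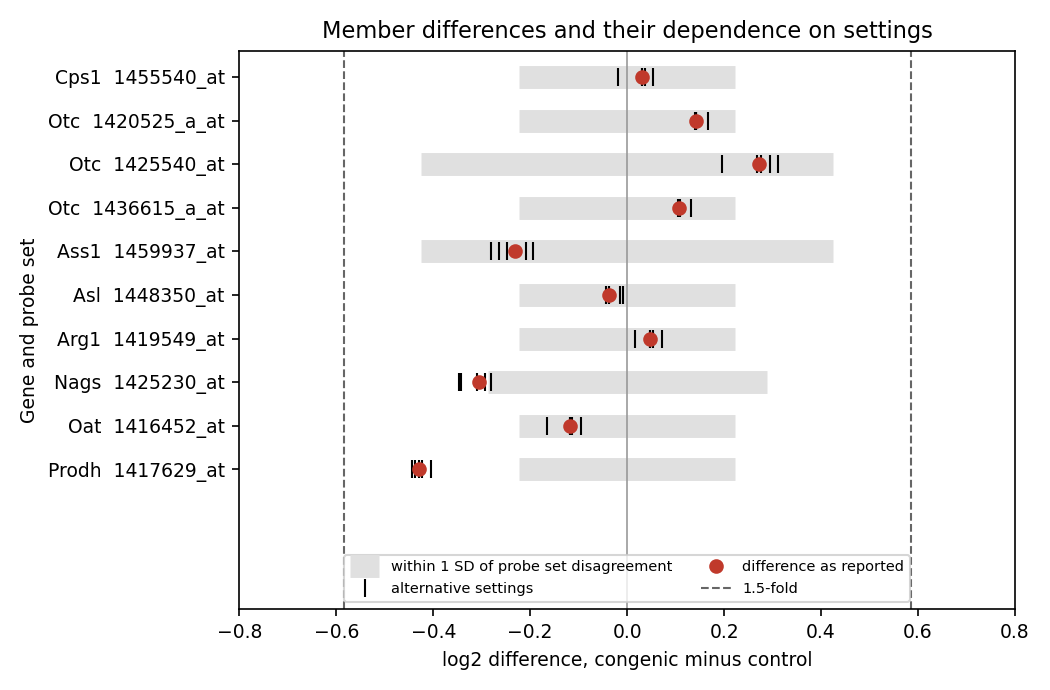
The log2 difference, congenic minus control, of each of the 10 probe sets (red circles), with the values under 5 other pseudocounts and scalings (black ticks), the band of 1 SD of probe set disagreement at that intensity (grey) and the 1.5-fold limits (dashed). No probe set reaches a 1.5-fold limit, Prodh and Nags lie below their grey bands, and Cps1 is the only one whose ticks lie on both sides of 0.

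The values of further enzymes of proline and hydroxyproline breakdown stand beside that of Prodh, and none of them passed 1.5-fold lower. Prodh2, which acts on hydroxyproline, stood at 562 in the congenic array and 783 in the control array, a difference of -0.48. Aldh4a1, the dehydrogenase that follows both enzymes, had 163 in the congenic array and 209.7 in the control array, a difference of -0.36, and Hoga1, the aldolase of the last hydroxyproline step, had a difference of -0.42. In the opposite direction, Aldh18a1, which starts proline and ornithine synthesis from glutamate, stood at 82.2 in the congenic array and 42.4 in the control array, a difference of 0.88. Its 4 probe sets spread from 0.09 to 0.88. Of 8 expressed genes in the list of proline, ornithine and arginine routes, 1 was higher and 1 lower by 1.5-fold or more, and the median was -0.20. The lower one was Gamt, the methyltransferase of creatine synthesis (-0.65), while Gatm, which makes its substrate from arginine and glycine, had 0.54.

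Among the isozymes, Arg2, the mitochondrial arginase, had 88.4 in the congenic array and 105 in the control array, a difference of -0.24, and its other probe set gave 0.04. Sdsl, a relative of Sds, lacked a single-symbol probe set in the annotation used and is not analysed here either.

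The list of ammonia, glutamate and transaminase genes, which holds suppliers of the cycle as well as genes that draw on ammonia or aspartate, had 8 of 10 expressed members below 0 and a median of -0.16, with 2 higher and 1 lower by 1.5-fold or more. The lower one was Car5a, the mitochondrial carbonic anhydrase that provides bicarbonate for Cps1, at 369.5 in the congenic array and 568 in the control array, a difference of -0.61. Got1, the cytosolic aspartate aminotransferase, stood at 2735 in the congenic array and 1549 in the control array (0.82). Asns, which makes asparagine, was dim at 35.4 in the congenic array and 17.2 in the control array (0.86), and it passed the expression filter through the congenic array alone. Among the 9 genes expressed on both arrays, 1 was higher and 1 lower.

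Glud1, glutamate dehydrogenase, which frees ammonia from glutamate, had a difference of -0.29, and its 2 probe sets lay between -0.29 and -0.23. Glul, the glutamine synthetase of the central vein zone, stood at 5300.0 in the congenic array and 5899 in the control array, a difference of -0.15. Gpt, an alanine aminotransferase, had -0.39 by its brightest probe set and 0.18 by the other.

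The list of urea cycle and general amino acid transporters was mixed, with a median of 0.02 over 12 expressed genes, 6 above and 6 below 0. Slc25a15, the carrier that brings ornithine into the mitochondrion for Otc, stood at 3492 in the congenic array and 2921 in the control array, a difference of 0.26, with 0.51 in its other probe set. Slc25a13, the aspartate and glutamate carrier citrin, differed by -0.24. Slc25a15 and Otc were both positive in all of their probe sets, while 43.8% of all expressed genes were below 0. Slc38a2, a sodium-coupled neutral amino acid transporter, was lower by 1.5-fold or more at -0.60 in its brightest probe set, but its other probe set gave 0.16. Slc7a8, a light chain of a neutral amino acid exchanger, was higher by that size (0.62). Slc25a22, a mitochondrial glutamate carrier, and Slc43a1, a transporter of large neutral amino acids, had 0.39 and -0.46.

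The breakdown of other amino acids was described by 7 lists with 63 expressed genes. By their brightest probe sets, 0 were higher and 2 lower by 1.5-fold or more, 3.17% against 5.26% lower in the background. Although few passed that size, 50 of the 63 (79.4%) were below 0, and their median was -0.21. Over all expressed genes 43.8% were below 0. Among the 1389 expressed genes with a mean intensity of 1000 or more, 48.5% were below 0 and the median was 0.01. Between 100 and 1000 the median was 0.06.

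Branched-chain amino acid breakdown had 16 of 18 expressed genes below 0 and a median of -0.30. None was past 1.5-fold in either direction by its brightest probe set. Other probe sets of Auh (-0.74), Mccc2 (-0.66), Hibch (-0.62), Ivd (-0.62), Hibadh (-0.61) and Bckdk (-0.60) were lower by that size. A further probe set of Mccc2 gave 0.10. Dbt, a subunit of the branched-chain ketoacid dehydrogenase, stood at 559 in the congenic array and 777 in the control array (-0.47), and Hibadh, of valine breakdown, at 2679 in the congenic array and 3707 in the control array (-0.47). The 2 genes above 0 both act on that dehydrogenase: Bckdk, the kinase that inhibits it, at 0.35, and Ppm1k, the phosphatase that reactivates it, at 0.18. Neither kept its sign in all probe sets, since the other one of Bckdk gave -0.60 and that of Ppm1k gave 0.00.

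Serine, glycine and threonine breakdown had all 10 expressed genes below 0, with a median of -0.24 and none past 1.5-fold by their brightest probe sets. Glyctk, a glycerate kinase, had -0.36, with 0.03 in its other probe set. Shmt1, the cytosolic serine hydroxymethyltransferase, had -0.32 by its brightest probe set, and its 4 probe sets lay between -0.83 and -0.21. Phgdh and Psph, which make serine, were at -0.36 and -0.01. Phgdh was dim, at 16.6 in the congenic array and 22.8 in the control array, and passed the expression filter through the control array alone. The direction of Phgdh turned with the probe set, up to 0.79 among its 3. Lysine breakdown had 4 of 5 genes below 0 and a median of -0.25, with Aldh7a1 at -0.34, Gcdh, glutaryl-CoA dehydrogenase, at -0.30, and Aass, the enzyme of the first step, at 0.03.

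Tryptophan breakdown had the lowest median of the 7 lists, -0.33, and held both genes lower by 1.5-fold or more. Kyat1, a kynurenine aminotransferase, stood at 368 in the congenic array and 603 in the control array (-0.70), and its 3 probe sets lay between -0.87 and -0.59. Afmid, the formamidase of kynurenine formation, stood at 513 in the congenic array and 818 in the control array (-0.67), with probe sets from -0.71 to -0.23. Kyat3 and Kynu were positive at 0.21 and 0.17, so 6 of the 8 expressed genes were below 0. The other probe set of Kynu gave 0.61, higher by 1.5-fold or more.

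Phenylalanine and tyrosine breakdown, methionine and cysteine breakdown, and histidine breakdown lay closer to the background, with medians of -0.12, -0.03 and -0.12 and no gene past 1.5-fold. Tat, the hormone-inducible tyrosine aminotransferase, was at 2915 in the congenic array and 2910 in the control array, a difference of 0.00, and Hpd, which follows it, at 0.03. Gstz1 and Qdpr were the lowest of their list at -0.27 and -0.19. Cbs and Cth, which carry homocysteine to cysteine, had 0.24 and 0.08, while Cdo1, which oxidises cysteine, and Mpst, which transfers its sulphur, had -0.33 and -0.34. In histidine breakdown Hal, the first enzyme, had 0.17 and Amdhd1 0.01, whereas Uroc1, the second enzyme, had -0.24 and Ftcd -0.26.

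**Figure D3:**
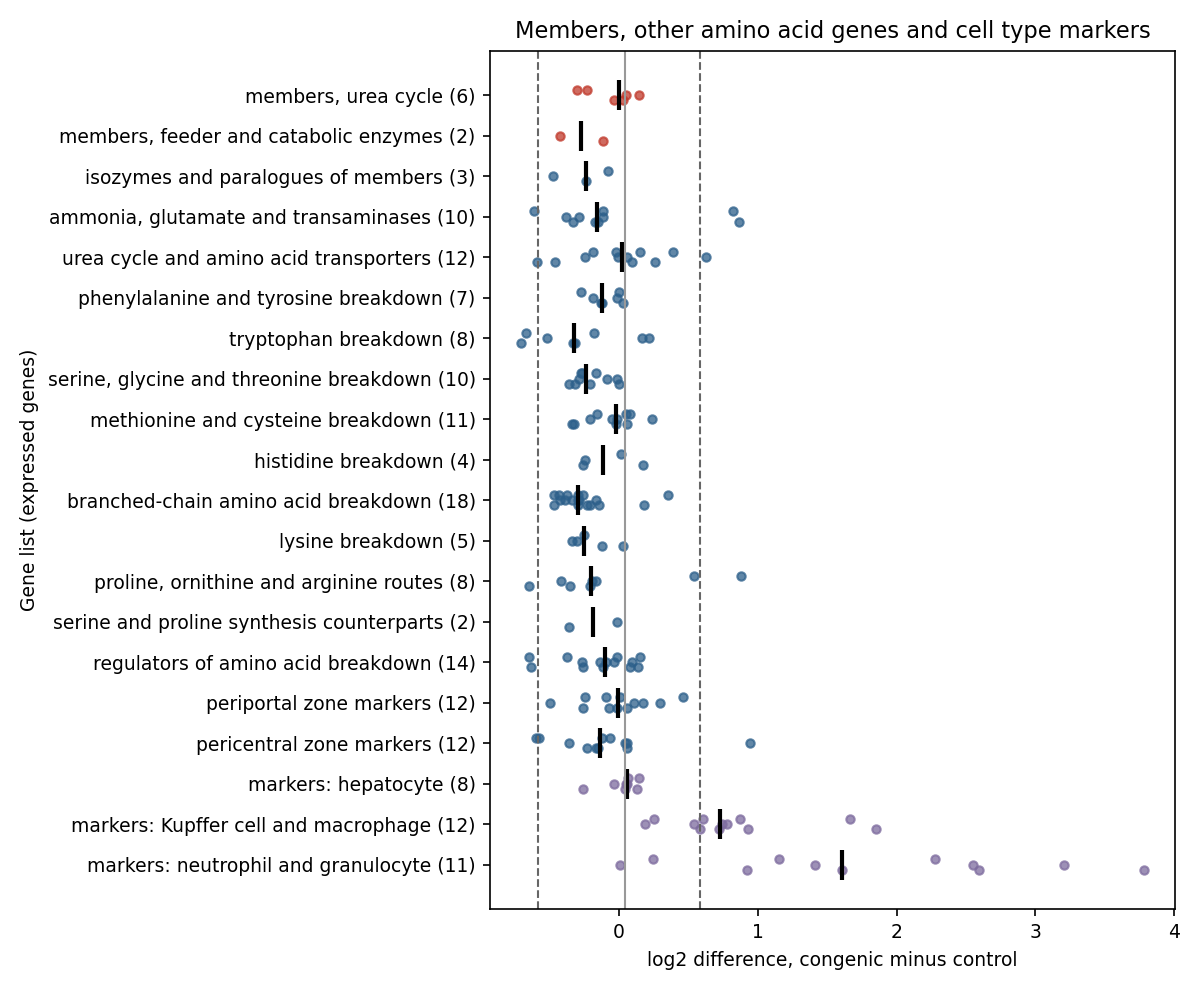
The log2 difference, congenic minus control, of every expressed gene in the urea cycle and catabolism set (red), the other amino acid and zone lists (blue) and 3 marker lists (purple), with the median of each list as a black bar, the median of all expressed genes as a grey line and the 1.5-fold limits dashed. The red points stay within the limits, the branched-chain list has 16 of 18 points below 0, and the neutrophil list has all 11 points above 0.

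Regulators known to act on these enzymes had a median of -0.10 over 14 expressed genes. Of these, 10 were below 0, beside 43.8% of all expressed genes. By 1.5-fold or more 0 were higher and 2 lower, beside 7.59% and 5.26% of all expressed genes. With the mean of all expressed probe sets in place of the brightest, 0 regulators passed this size. The 2 were Foxo1, a transcription factor that insulin restrains, at -0.65 by its brightest probe set (the others reached 0.16), and Ppara, the fatty acid receptor, at -0.63 (to -0.45). Creb1 and Creb3l3, transcription factors that respond to fasting signals, had 0.15 and 0.14. The zones of the liver lobule were described by 12 expressed genes each. Genes of the portal zone had a median of -0.01 and none past 1.5-fold by their brightest probe sets, but 3 were past it with the mean of expressed probe sets. Sox9 and Cyp2f2 were the lowest at -0.50 and -0.26. Etnppl, an enzyme of phosphoethanolamine breakdown, and Ctsc, a lysosomal protease, were the highest at 0.30 and 0.46, and their other probe sets reached 1.57 and 0.96. Genes of the central zone had a median of -0.14 with 1 higher, the transcription factor Tbx3 (0.94), and 1 lower, Cyp1a2 (-0.60), followed by Lect2 (-0.58). Cyp1a2 and Lect2 lie at the 1.5-fold limit. In place of 2, the number of central zone genes past it was 1 after median centring. It was 3 after quantile normalization or removal of a lowess trend. The next highest was Slc1a2, a glutamate transporter, at 0.06 in its brightest probe set and down to -0.97 in its others.

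The hepatocyte markers that define the labelled tissue were present, and by their brightest probe sets all 8 expressed members lay within 1.5-fold. Their median was 0.05, with a summed intensity of 85555 in the congenic array and 82494 in the control array. Other probe sets reached 0.64 for Apob and -0.59 for Hnf4a. Alb, Apoa1 and Ttr read near the maximum of both arrays, where differences can be flattened. Several lists of markers of other cells had members higher in the congenic array. Of 11 expressed neutrophil markers 9 were higher by 1.5-fold or more and 0 lower, with a summed intensity of 12859 in the congenic array and 5205 in the control array, and of 12 macrophage markers 8 were higher and 0 lower (34963 and 23453). Of the 9 neutrophil markers, 4 (Camp, Ltf, Mpo and Prtn3) passed the expression filter through the congenic array alone, and among the 7 neutrophil markers expressed on both arrays 5 were higher. Of 5 B and plasma cell markers 4 were higher (summed intensity 1086 in the congenic array and 270.1 in the control array), and of 8 stellate cell markers 5 (8585 and 6389). Of 7 endothelial markers 0 were higher and 1 lower by 1.5-fold or more (Lyve1, at -0.64). The 6 others were above 0, and the median of this list was 0.31. Among 4 expressed T and NK cell markers 3 were higher and 0 lower (189.9 and 100.8). The list of alternatively activated macrophages had 1 of 4 higher (Chil3, at 2.02) and 0 lower. Cholangiocyte markers did not follow: 3 of 4 were below 0 with none past 1.5-fold. Of 4 erythroid markers 1 was higher and 0 lower, with 2 below 0. None of the marker lists named here had a member at 1, a repeated low value of these arrays. The part of these cells in the differences of the amino acid genes was not tested. In bulk liver RNA, fewer cells of a type and less RNA per cell cannot be told apart.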

How the data were processed

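Expression was measured in liver RNA with 1 Affymetrix array per group. The deposited table gives, for each array, the linear intensity of every probe set. For probe summarization, background correction and scaling, the method was not given in the sources used here; per the labels, biotinylated cRNA was prepared by the Affymetrix protocol. The array medians were 19.3 (congenic) and 19.7 (control), and intensities were used as deposited. The number of arrays limits the precision.

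Of 45101 probe sets, 64 controls were left out, and 34945 of the others had 1 symbol in the platform annotation, 932 several and 9160 none. The probe set with the highest mean of its 2 intensities (the brightest) stood for a gene with several. Differences were log2(intensity + 5), congenic minus control, and a size of 1.5-fold replaced a test. Named genes are all set members, fixed isozymes and partners, and the 2 highest and 2 lowest expressed genes of each list, fewer where a list had none. The members and lists were chosen with earlier results of these data known. Chromosomes came from RefSeq (GRCm38.p6), whose symbols matched 18145 of 18193 genes. The calculation was tested on simulated data. Python 3.11.15, pandas 2.3.3 and statsmodels 0.14.6 were used.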

Additional observations from a re-analysis of the deposited data

How the results depend on the processing

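No paired analysis was possible because each group has 1 array. The counts of urea cycle and catabolism genes past 1.5-fold stayed at 0 higher and 0 lower under other pseudocounts (20 or none), median centring, quantile normalization, removal of a lowess trend (span 0.3), other ways to combine probe sets of a gene, other expression filters and a 2-fold limit. The median difference lay between -0.09 and -0.04 under these settings and with the probe set shared with Gm5424 in place of that of Ass1, an alternative chosen after seeing the data. With the 75th percentile as the filter 7 of the 8 genes were left. None of 50 values of single probe sets under another pseudocount or scaling moved by more than the SD of probe set disagreement. Of 164 counts in the other gene and zone lists, 21 changed by more than 1.5 times. These counts were taken past 1.5-fold, or past 2-fold under the 2-fold limit, where several fell to 0. With the mean of expressed probe sets, 0 regulators and 1 gene each of the transporter, tryptophan and proline lists were past 1.5-fold, where the brightest probe sets gave 2 each, while portal zone genes past it numbered 3 in place of 0. The median of the serine synthesis list (Phgdh and Psph) was 0.19 in place of -0.19 under this setting. Of that list, only Psph was expressed on both arrays, at -0.01. With names ending in a plain _at alone, 2 branched-chain genes were past it. The cause was not tested. The share of expressed genes past 1.5-fold ran from 7.20% with a pseudocount of 20 to 15.2% with none. With no filter it was 16.8% of all 18193 genes, dim ones included.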
